A study of Mus musculus with 7 samples.

Results

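The integrated stress response genes described here are Atf4, the transcription factor at its centre, and 9 genes known as targets or companions of ATF4: Atf5, Ddit3, Nupr1, Chac1, Asns, Trib3, Ppp1r15a, Sesn2 and Gdf15. They were chosen by symbol, 10 of the 37620 gene rows in the deposited count table, and all 10 were among the 15249 genes that passed the filter on low counts. RNA was sequenced from whole liver of C57BL/6 mice kept on a Western diet, a feed high in fat and sugar, for a period of 30 weeks. High total bile acids define the H-TBA group, with 4 libraries, and low total bile acids define the L-TBA group, with 3. The labels name no genotype, drug, sex or age, so strain, diet and its duration are what both groups are known to share, and no group on another diet was used here. Nothing in the labels ties a library to an animal of its own, so the p-values reflect spread among libraries, which may be technical.

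The integrated stress response starts when a kinase phosphorylates the translation factor eIF2. PERK senses unfolded protein in the endoplasmic reticulum, GCN2 senses uncharged tRNA, PKR senses double-stranded RNA and HRI senses heme shortage and mitochondrial stress. Phosphorylated eIF2 slows most translation but lets ribosomes reach the coding sequences of Atf4, Atf5, Ddit3 and Ppp1r15a, whose mRNAs carry upstream reading frames. ATF4 then raises genes for amino acid supply, redox balance and, with CHOP, cell death. In liver the same programme also drives the secreted factors GDF15 and FGF21. Because much of ATF4's regulation is translational, mRNA levels alone report only part of this pathway.

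ATF4 and C/EBP proteins bind a composite DNA element, so the promoters of the 10 genes were searched for its core, TGATGNAA. The search covered the 250 bases before each RefSeq gene start in build GRCm38.p6, on both strands, in 12 windows for the 10 genes, since Atf5 and Gdf15 have 2 starts each. The core was found in 3 of the 12 windows, for 3 of the 10 genes. It was held by 3.45% of all 32851 promoter windows of that length and by 3.91% of the 27025 genes that have them. The stretches that hold it are shown because these 3 genes gave different results in the counts, and their capitals mark the match.
Asns, chr6:7693214-7693243, minus strand: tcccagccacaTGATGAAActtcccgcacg
Chac1, chr2:119351038-119351067, plus strand: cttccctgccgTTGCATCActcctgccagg
Nupr1, chr7:126625562-126625591, minus strand: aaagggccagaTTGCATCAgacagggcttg
The Asns match reads forward with respect to the gene and ends 16 bases before the start, while the Chac1 and Nupr1 matches lie on the opposite strand and end 186 and 103 bases before the start. Chac1 and Nupr1 carry the stricter form TGATGCAA, one of the sequences that TGATGNAA covers, which 0.791% of windows and 0.918% of genes held. The cyclic AMP element TGACGTCA, which reads the same on both strands and overlaps neither other motif, was found in 1 member, Ppp1r15a. It was held by 1.55% of windows and 1.77% of genes.
Ppp1r15a, chr7:45526269-45526291, minus strand: cgcctctccggTGACGTCAgcac
A match describes the letters in these windows and does not show that a factor binds there.

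Depth was similar across the libraries, with 9996990 to 12152613 counts each. On the first principal component of the tested genes, which held 64.7% of the variance, H-TBA 1 lay at -10.7, apart from the other H-TBA libraries at -43.5 to -34.6 and nearer to the L-TBA libraries at 36.8 to 45.2. Changes of a call without H-TBA 1 are given with each gene described. Hepatocyte markers were abundant in both groups, with a summed level of 61987 to 72948 CPM (counts per 1e6 counts, TMM-scaled) in H-TBA and 69271 to 80216 CPM in L-TBA, and of the 10 genes 3 rose (Tat, Cps1 and Ass1) and 3 fell (Apob, Ttr and Cyp2e1). The groups also differed in other cell type markers: all 12 bile duct markers rose in H-TBA, with a summed level of 1009 to 1935 CPM in H-TBA and 477 to 745 CPM in L-TBA. Of the stellate cell or fibroblast markers, 4 of 10 rose and 1 fell, with a summed level of 853 to 959 CPM in H-TBA and 565 to 1014 CPM in L-TBA. Of the endothelial markers, 1 of 9 rose and 3 fell, with 134 to 163 CPM in H-TBA and 167 to 214 CPM in L-TBA. T, NK and B cell markers summed to 11.96 to 21.0 CPM in H-TBA and 13.7 to 37.1 CPM in L-TBA. Neutrophil markers summed to 6.26 to 8.82 CPM in H-TBA and 11.02 to 11.4 CPM in L-TBA, with 1 of 3 tested (S100a8) lower and Ly6g at 0 in every library. The S100a8 call (adjusted p = 0.0274) was lost with DESeq2 (0.0757), with the replicate block (0.142) and without H-TBA 3, H-TBA 4, L-TBA 2 or L-TBA 3 (0.0551 to 0.121). Beside these marker counts, 13.1% of all tested genes were called higher and 10.7% lower in edgeR's test (adjusted p under 0.05). In whole tissue, fewer cells of a type and less RNA per cell cannot be told apart.

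None of the 10 genes was called higher in H-TBA livers, and 3 were called lower: Gdf15 at 39.1% of the L-TBA level, Chac1 at 52.2% and Atf5 at 74.8%. The other 7 did not pass the threshold of an adjusted p under 0.05 in edgeR's quasi-likelihood test. Across all tested genes, 23.9% passed this threshold, 13.1% higher and 10.7% lower. Among genes whose longest transcript had at most 1867.5 bases, 8.41% were called higher and 14.0% lower. Gdf15 (1545 bases), Chac1 (1637), Atf5 (1816) and Ddit3 (969) belong to that class. With an offset for gene length the 3 lower calls were kept. The log2 fold change (H-TBA over L-TBA) was below 0 for 7 of the 10 genes, and its median over the 10 was -0.35, beside 0.00 over all tested genes. At an unadjusted p under 0.05, 0 members were higher and 4 were lower, against 19.5% higher and 17.3% lower of all tested genes. DESeq2 and limma-voom with quality weights each called 0 members higher and 4 lower, with Atf4 added. Over all genes it tested, DESeq2 called 1856 higher and 1592 lower of 17712. For limma-voom these were 2346 higher and 2077 lower of 15249. For 4 members the groups shared no range, all lower in H-TBA, while 33.5% of all tested genes were without overlap, 16.3% with H-TBA lower.

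**Figure D1:**
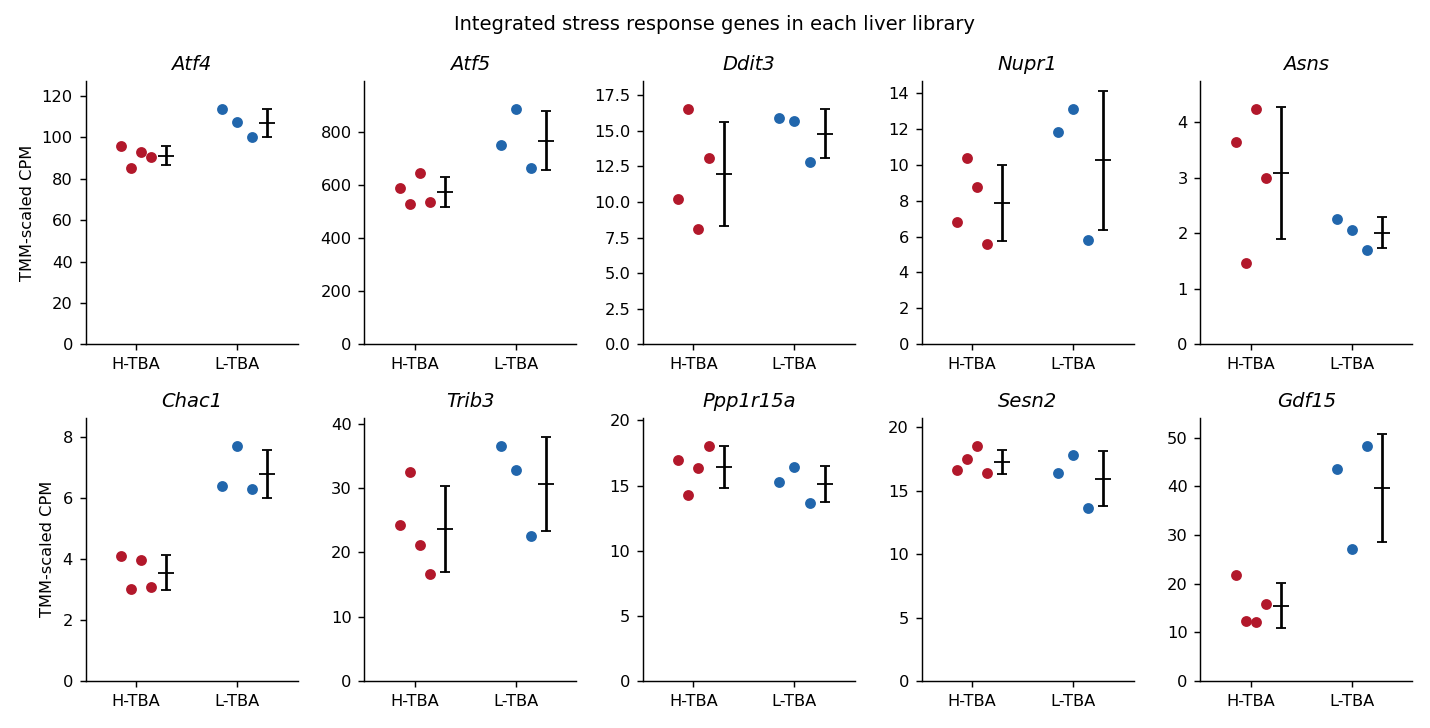
Each panel plots 1 of the 10 genes, with the level in CPM on the vertical axis from 0, points for the 4 H-TBA libraries on the left and the 3 L-TBA libraries on the right, and a short line with its error bar for the group mean ± SD. Gdf15 lies between 12.04 and 21.8 CPM in H-TBA and between 27.01 and 48.3 CPM in L-TBA, and Atf4, Atf5, Chac1 and Gdf15 are the panels without overlap.

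Atf4 encodes the bZIP transcription factor on which the pathway converges. Its level was 95.9, 85.4, 92.9 and 90.8 CPM in the H-TBA libraries and 114, 108 and 100.1 CPM in the L-TBA libraries. Every H-TBA library lay below every L-TBA library. The means were 91.2 ± 4.43 CPM in H-TBA and 107 ± 6.82 CPM in L-TBA (SD, n = 4 and 3), a log2 fold change of -0.23 ± 0.08 (SE, 95% interval -0.41 to -0.05). This difference did not pass (adjusted p = 0.0585, edgeR). It passed with DESeq2 (adjusted p = 0.0438), limma-voom (0.0276), without H-TBA 1 (0.0392) and with an offset for GC content (0.0216), and over all 18 alternatives its adjusted p ran from 0.0216 to 0.551.

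Atf5 encodes a related bZIP factor that is strongly expressed in liver and takes part in the mitochondrial stress response. The H-TBA libraries had 590.0, 528, 647 and 536 CPM of Atf5, and the L-TBA libraries had 752, 887 and 667 CPM. The groups did not overlap, although H-TBA 3 and L-TBA 3 lay close together. Atf5 averaged 575 ± 55.4 CPM in H-TBA and 769 ± 111 CPM in L-TBA (SD, n = 4 and 3), and it fell with a log2 fold change of -0.42 ± 0.12 (95% interval -0.68 to -0.15, adjusted p = 0.0278). The call was lost without H-TBA 2 (adjusted p = 0.0836), H-TBA 4 (0.0873), L-TBA 1 (0.0713) or L-TBA 2 (0.128), with library totals as the only scaling (0.156) and with the replicate number as a block (0.186). The adjusted p over all alternatives ran from 0.00258 to 0.186, and the log2 fold change stayed below 0, from -0.65 to -0.26. Atf5 shares 82 bases of exon with Il4i1 on the opposite strand, which had 188 counts over all 7 libraries, and whether the counting used strand is not given in the sources used here.

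Ddit3 encodes CHOP, the factor that links prolonged stress to cell death. Its level was 10.2, 16.5, 8.13 and 13.1 CPM in the H-TBA libraries and 15.9, 15.7 and 12.8 CPM in the L-TBA libraries. H-TBA 2 was the highest of the 7 libraries and H-TBA 3 the lowest, so the H-TBA values spanned those of L-TBA. The log2 fold change was -0.31 ± 0.21 (95% interval -0.76 to 0.14, adjusted p = 0.302). Ddit3 shares 68 bases of exon with Mars, the methionyl-tRNA synthetase gene on the opposite strand, which had 4265 counts over the 7 libraries, so some Ddit3 counts may belong to Mars.

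Nupr1 encodes a small stress-induced chromatin protein that acts downstream of ATF4. The H-TBA libraries had 6.82, 10.4, 8.78 and 5.58 CPM, and the L-TBA libraries had 11.8, 13.1 and 5.81 CPM. L-TBA 3 lay near the bottom of the H-TBA range, so the groups overlapped. The log2 fold change was -0.39 ± 0.27 (95% interval -0.99 to 0.21, adjusted p = 0.333).

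Among the effectors, Chac1 encodes an enzyme that breaks down glutathione and is a known ATF4 and CHOP target. Chac1 had 4.11, 3.03, 3.98 and 3.07 CPM in the H-TBA libraries and 6.39, 7.72 and 6.31 CPM in the L-TBA libraries. The highest H-TBA library lay clearly below the lowest L-TBA library. These levels rest on few reads, 31 to 49 counts per H-TBA library and 63 to 86 per L-TBA library. Chac1 averaged 3.55 ± 0.577 CPM in H-TBA and 6.81 ± 0.790 CPM in L-TBA (SD, n = 4 and 3) and fell with a log2 fold change of -0.94 ± 0.18 (95% interval -1.34 to -0.54, adjusted p = 0.00385). All 18 alternatives kept the call, with adjusted p between 0.00106 and 0.0484.

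Asns encodes asparagine synthetase, a long-studied target of the response to amino acid shortage. Its level was 3.64, 1.47, 4.23 and 2.99 CPM in the H-TBA libraries and 2.25, 2.06 and 1.70 CPM in the L-TBA libraries. In H-TBA, 3 of the libraries lay above all L-TBA libraries, and H-TBA 2 lay below them, with 15 counts. The log2 fold change was 0.62 ± 0.33 (95% interval -0.09 to 1.34, adjusted p = 0.194). Without H-TBA 2 it was 0.85 and passed (adjusted p = 0.038), so this member alone would rise on leaving out that 1 library. The adjusted p of Asns over the alternatives ran from 0.038 to 0.413.

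Trib3 encodes a pseudokinase that ATF4 and CHOP raise and that feeds back on ATF4. The H-TBA libraries had 24.2, 32.4, 21.1 and 16.7 CPM, and the L-TBA libraries had 36.5, 32.8 and 22.5 CPM. The groups overlapped through H-TBA 2 and L-TBA 3. The log2 fold change was -0.39 ± 0.21 (95% interval -0.85 to 0.07, adjusted p = 0.206).

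Ppp1r15a encodes GADD34, the inducible phosphatase subunit that reverses eIF2 phosphorylation. Ppp1r15a had 17.0, 14.3, 16.3 and 18.0 CPM in the H-TBA libraries and 15.3, 16.4 and 13.6 CPM in the L-TBA libraries. The values interleaved. Its log2 fold change of 0.12 ± 0.12 had a 95% interval of -0.14 to 0.37 (adjusted p = 0.499).

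Sesn2 encodes sestrin 2, a leucine-binding inhibitor of mTORC1 that ATF4 induces. Sesn2 had 16.6, 17.5, 18.5 and 16.4 CPM in the H-TBA libraries and 16.4, 17.9 and 13.6 CPM in the L-TBA libraries. Its log2 fold change was 0.11 ± 0.11 (95% interval -0.14 to 0.36, adjusted p = 0.524), and with an offset for GC content the direction turned, to -0.041. The transcript of Sesn2 is rich in G and C, at 58.7%, and genes with a GC content above 54.3% had a median log2 fold change of 0.11. The other members above that GC content were Atf5 (61.7%), Gdf15 (61.3%), Trib3 (58.2%), Chac1 (57.4%), Ppp1r15a (55.7%) and Atf4 (55.5%). With the GC offset the log2 fold changes of Atf5 and Gdf15 were -0.65 and -1.57.

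Gdf15 encodes a secreted cytokine that liver releases under many stresses and that acts on the brainstem receptor GFRAL. Its level was 21.8, 12.3, 12.04 and 15.9 CPM in the H-TBA libraries and 43.6, 27.01 and 48.3 CPM in the L-TBA libraries. Every H-TBA library was below every L-TBA library, with the nearest pair being H-TBA 1 and L-TBA 2. Gdf15 averaged 15.5 ± 4.53 CPM in H-TBA and 39.6 ± 11.2 CPM in L-TBA (SD, n = 4 and 3). It fell with a log2 fold change of -1.36 ± 0.22 (95% interval -1.84 to -0.87, adjusted p = 0.0016), the largest difference among the 10 in either direction. All 18 alternatives kept the call, with log2 fold changes from -1.57 to -1.19 and adjusted p from 2.89e-07 to 0.00873. Macrophages can also express Gdf15, and macrophage markers moved the same way. Of these, 3 of 12 (Adgre1, Clec4f and Cd5l) fell and 0 rose, or 25% lower, beside 10.7% lower and 13.1% higher of all tested genes. The summed level of the macrophage markers was 350 to 432 CPM in H-TBA and 574 to 783 CPM in L-TBA. The part of macrophages in the Gdf15 result was not tested.

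**Figure D2:**
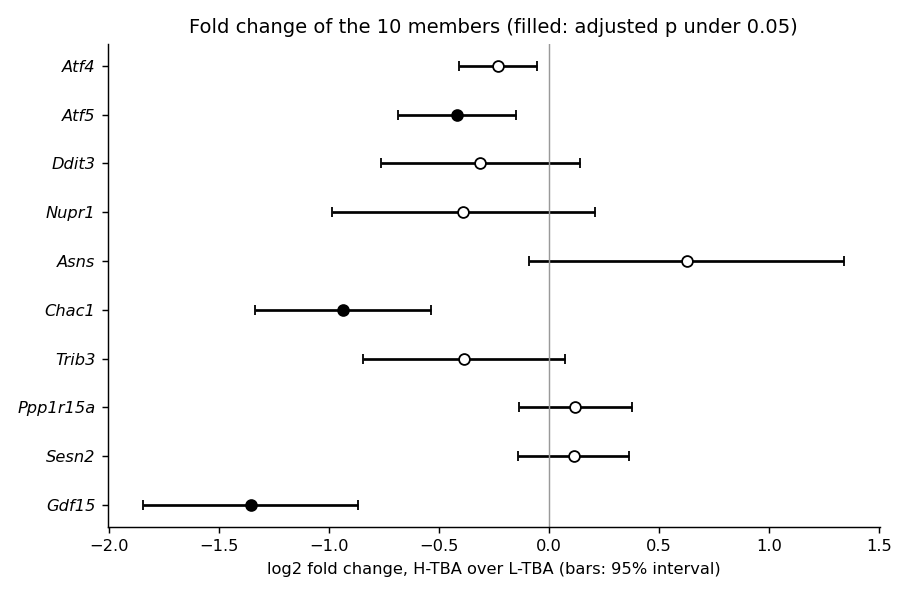
Log2 fold changes (H-TBA over L-TBA, horizontal axis) of the 10 genes with 95% intervals, from edgeR's fit. Gdf15 at -1.36, Chac1 at -0.94 and Atf5 at -0.42 are past the threshold, and the intervals of Trib3, Ddit3, Nupr1, Asns, Ppp1r15a and Sesn2 reach to both sides of 0.

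The 10 genes differed widely in level. Per kilobase of merged exon, the mean level of Atf5 was 289 CPM per kb in H-TBA and 386 in L-TBA, far above the next gene, Atf4, at 38.7 CPM per kb in H-TBA and 45.4 in L-TBA. Below them in H-TBA came Trib3 at 11.1 CPM per kb, Gdf15 at 8.37, Ddit3 at 6.996, Ppp1r15a at 5.59, Sesn2 at 4.97, Nupr1 at 3.14, Chac1 at 2.17 and Asns at 1.13. The order in L-TBA was Gdf15 at 21.4 CPM per kb, Trib3 at 14.4, Ddit3 at 8.64, Ppp1r15a at 5.15, Sesn2 at 4.59, Chac1 at 4.16, Nupr1 at 4.08 and Asns at 0.733. By mean level, Gdf15 stood between Trib3 and Ddit3 in H-TBA and above Trib3 in L-TBA. Chac1 stood by mean level below Nupr1 in H-TBA and above it in L-TBA.

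Several neighbours in this order could not be told apart by their spread. In H-TBA, Gdf15 ran from 6.50 to 11.8 CPM per kb, Trib3 from 7.84 to 15.3 and Ddit3 from 4.75 to 9.64, and the ranges of Ppp1r15a (4.86 to 6.14) and Sesn2 (4.73 to 5.34) also met. The Ddit3 range in H-TBA covered that of Ppp1r15a, and Chac1 (1.85 to 2.51) overlapped Nupr1 (2.22 to 4.12). In L-TBA the ranges of Gdf15 (14.6 to 26.1) and Trib3 (10.6 to 17.2) overlapped, as did those of Chac1 (3.85 to 4.71) and Nupr1 (2.31 to 5.21). The L-TBA ranges of Ppp1r15a (4.64 to 5.59) and Sesn2 (3.92 to 5.14) met as well. The order of Chac1 and Nupr1, and that of Gdf15 and Trib3, was thus unclear in both groups. The places of Atf5 and Atf4 at the top were clear of all others in both groups. Exon lengths came from a later build than the counts, so these levels carry that extra uncertainty.

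The genes also differed in the spread of their level within a group. Atf4 had a coefficient of variation of 4.85% in H-TBA and 6.36% in L-TBA, and Ppp1r15a had 9.70% in H-TBA and 9.32% in L-TBA. At the other end, Asns varied by 38.6% in H-TBA and 13.8% in L-TBA, and Nupr1 by 26.8% in H-TBA and 38.02% in L-TBA. Ddit3 varied by 30.4% in H-TBA and 11.6% in L-TBA. With 4 and 3 libraries these spreads are themselves imprecise. They also include counting noise, which is larger for genes with few reads and was not separated here. Asns had 15 to 52 counts per library in H-TBA and 17 to 26 in L-TBA, and Nupr1 had 69 to 108 and 58 to 146. Atf4 had 874 to 1142 counts in H-TBA and 999 to 1316 in L-TBA.

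Single libraries did not rank alike across the 10 genes. L-TBA 3 was the lowest of its group for 9 genes, and for Gdf15 it was the highest. H-TBA 2 was the lowest of its group for 5 genes (Atf4, Atf5, Asns, Chac1 and Ppp1r15a) and the highest for 3 (Trib3, Ddit3 and Nupr1). H-TBA 1, the library nearest to L-TBA on the first principal component, was the highest of its group for Atf4, Chac1 and Gdf15. Without H-TBA 1, 0 members were called higher and 4 lower, with Atf4 added. Calls over all tested genes rose as well, from 2003 higher and 1635 lower to 2429 higher and 2123 lower.

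Set against Atf4 itself, in counts per 1000 Atf4 counts of the same library, 2 members were without overlap in each direction. This ratio needs no scaling between libraries, and it is given without a test. Because Atf4 itself was lower in every H-TBA library, dividing by it lifts every gene in H-TBA: of the other 15248 tested genes, 33.5% had every H-TBA library above every L-TBA library on this ratio and 4.73% had every H-TBA library below. Chac1 had 42.8, 35.5, 42.9 and 33.9 counts per 1000 Atf4 counts in H-TBA and 56.2, 71.7 and 63.1 in L-TBA, and the groups did not overlap. Gdf15 had 227, 144, 129.6 and 175 in H-TBA and 384, 251 and 482 in L-TBA, again with every H-TBA library below every L-TBA library. Sesn2 had 173, 205, 199.6 and 181 per 1000 Atf4 counts in H-TBA and 144, 166 and 136 in L-TBA, and Ppp1r15a had 177, 167, 176 and 199 in H-TBA and 134, 153 and 136 in L-TBA. Both lay higher in H-TBA on the ratio, while their levels in CPM overlapped between the groups. Atf5, Asns, Trib3, Ddit3 and Nupr1 overlapped between the groups on this ratio.

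Upstream of the 10 genes, the list of eIF2 kinases, eIF2 and eIF2B subunits and their regulators had 15 members, of which 0 rose and 2 fell, or 13.3% lower beside 10.7% of all tested genes. At an unadjusted p under 0.05, 0 were higher and 3 lower, and DESeq2 called 0 higher and 2 lower. Both genes that fell had every H-TBA library below every L-TBA library. Eif2ak2, which encodes PKR, averaged 18.3 ± 1.96 CPM in H-TBA and 24.6 ± 1.48 CPM in L-TBA (SD, n = 4 and 3), a log2 fold change of -0.43 ± 0.11 (adjusted p = 0.0128). Its call was lost without L-TBA 3 (adjusted p = 0.0537) and with library totals (0.0867), within a range of 0.0084 to 0.0867. Ppp1r15b, the constitutive partner of Ppp1r15a in eIF2 dephosphorylation, averaged 93.6 ± 4.98 CPM in H-TBA and 118 ± 13.0 CPM in L-TBA, a log2 fold change of -0.34 ± 0.09 (adjusted p = 0.0199). That call was lost without H-TBA 4 (0.0544), L-TBA 1 (0.102), with library totals (0.135) and with the replicate block (0.0832), within a range of 0.00642 to 0.135. The other 3 kinases did not pass: the log2 fold change was -0.15 ± 0.14 for Eif2ak3 (PERK), -0.17 ± 0.15 for Eif2ak4 (GCN2) and -0.09 ± 0.09 for Eif2ak1 (HRI). With library totals the median of this list was 0.063, and -0.088 with TMM, and Eif2ak1 and Eif2ak3 turned to 0.063 and 0.013. The eIF2 subunit gene Eif2s2, at -0.23 ± 0.09 (adjusted p = 0.0811), passed without H-TBA 1 (0.022) and with limma-voom (0.0288), within a range of 0.022 to 0.464.

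The amino acid transporters of the ATF4 programme had 8 tested genes, of which 2 rose and 1 fell. Slc7a11, the cystine importer xCT that supplies glutathione synthesis, had 5.79, 5.08, 2.20 and 4.77 CPM in the H-TBA libraries and 1.21, 1.35 and 1.002 CPM in the L-TBA libraries. The H-TBA libraries all lay above those of L-TBA, and the rise was 1.89 ± 0.35 on the log2 scale (adjusted p = 0.00302). Bile duct markers also rose in H-TBA, with a summed level of 1009 CPM in H-TBA 1, their lowest in that group. H-TBA 1 had the highest level of Slc7a11, and the part of these markers in the rise of Slc7a11 was not tested. The glycine transporter gene Slc6a9 fell, with 26.3 ± 3.35 CPM in H-TBA and 44.7 ± 5.24 CPM in L-TBA (SD, n = 4 and 3) and a log2 fold change of -0.77 ± 0.11 (adjusted p = 0.00094). Slc7a1, a cationic amino acid transporter gene, rose by 0.81 ± 0.23 on the log2 scale (adjusted p = 0.0272), but the groups overlapped, and leaving out any 1 library except H-TBA 1 ended the call (adjusted p 0.05 to 0.101 without H-TBA 2, H-TBA 3, H-TBA 4, L-TBA 1, L-TBA 2 or L-TBA 3), as did the replicate block (0.112 at the highest over all alternatives). Against 13.1% higher and 10.7% lower of all tested genes, the median log2 fold change of the 8 was 0.32.

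The enzymes of amino acid and one-carbon synthesis had 9 tested genes, of which 1 rose and 3 fell, with a median log2 fold change of -0.01. That is 11.1% higher and 33.3% lower, beside 13.1% and 10.7% of all tested genes. Cth, which encodes the enzyme that makes cysteine from cystathionine, had 756, 846, 621 and 647 CPM in the H-TBA libraries and 229.8, 210.0 and 311 CPM in the L-TBA libraries. It rose by 1.52 ± 0.16 on the log2 scale (adjusted p = 0.000195), and all 18 alternatives kept the call. Mthfd2, Psat1 and Gpt2, which act in mitochondrial folate metabolism, serine synthesis and alanine metabolism, fell with log2 fold changes of -0.73 ± 0.21 (adjusted p = 0.0255), -0.76 ± 0.24 (0.0398) and -0.39 ± 0.10 (0.0208). Each of these 3 calls was lost on leaving out single libraries: Mthfd2 without H-TBA 2, L-TBA 1 or L-TBA 2 (adjusted p 0.0678 to 0.112), Psat1 without H-TBA 1, H-TBA 2, H-TBA 4, L-TBA 1 or L-TBA 2 (0.0605 to 0.2), and Gpt2 without H-TBA 2, H-TBA 4, L-TBA 1 or L-TBA 3 (0.0553 to 0.0898). Library totals and the replicate block ended all 3 calls as well, and the highest adjusted p over all alternatives was 0.112 for Mthfd2, 0.2 for Psat1 and 0.113 for Gpt2. Phgdh, the first enzyme of serine synthesis, had 1.03, 2.74, 4.55 and 2.02 CPM in H-TBA and 0.950, 0.808 and 2.003 CPM in L-TBA, and did not pass (adjusted p = 0.133). Without H-TBA 1 it passed (0.0265), within a range of 0.0265 to 0.356.

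Of the 20 cytosolic aminoacyl-tRNA synthetases, 1 rose and 1 fell, or 5% each, beside 13.1% higher and 10.7% lower of all tested genes. Aars averaged 148 ± 20.1 CPM in H-TBA and 198 ± 14.9 CPM in L-TBA, with a log2 fold change of -0.42 ± 0.11 (adjusted p = 0.0172). Vars averaged 68.5 ± 11.996 CPM in H-TBA and 49.2 ± 6.68 CPM in L-TBA, with a log2 fold change of 0.48 ± 0.14 (adjusted p = 0.0297). Aars lost its call without H-TBA 2, H-TBA 4 or L-TBA 2 (adjusted p 0.0525 to 0.074). Vars lost its call without H-TBA 2, H-TBA 3, H-TBA 4, L-TBA 1 or L-TBA 3 (0.0642 to 0.116). Over all single removals the log2 fold change ran from -0.52 to -0.36 for Aars and from 0.41 to 0.59 for Vars. The replicate block ended both calls, library totals that of Aars and the GC offset that of Vars, with a highest adjusted p of 0.082 for Aars and 0.129 for Vars. The median of the list was -0.14, and 0.02 with library totals. Cars did not pass (log2 fold change -0.28 ± 0.09, adjusted p = 0.0557). It passed with DESeq2 size factors (0.0491), limma-voom (0.0479), the length offset (0.0328), the GC offset (0.0277) and without L-TBA 3 (0.0399), within a range of 0.0277 to 0.49.

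The 16 other partners and targets of ATF4 and CHOP went both ways, with 3 higher and 4 lower. That is 18.8% higher and 25% lower, beside 13.1% and 10.7% of all tested genes. Ddit4, which encodes the mTORC1 inhibitor REDD1, had 14.6, 14.4, 14.6 and 14.9 CPM in the H-TBA libraries and 7.34, 7.90 and 7.41 CPM in the L-TBA libraries. The groups lay far apart relative to their spread, and the log2 fold change was 0.95 ± 0.11 (adjusted p = 0.000315). Stc2, which encodes stanniocalcin 2, rose as well, with 3.61 ± 0.681 CPM in H-TBA and 1.03 ± 0.383 CPM in L-TBA. Its rise was 1.80 ± 0.30 on the log2 scale (adjusted p = 0.00167). Stc2 rests on few reads in L-TBA, and it passed the filter on low counts through the H-TBA libraries. All 18 alternatives kept its call, with no filter among them (adjusted p up to 0.0248).

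Fgf21, the other secreted factor of the response beside Gdf15, had 16.1, 12.2, 18.4 and 16.1 CPM in the H-TBA libraries and 31.2, 26.1 and 32.2 CPM in the L-TBA libraries. It fell with a log2 fold change of -0.92 ± 0.13 (adjusted p = 0.000798), and no library of one group reached the other. Atf3, a repressor and activator induced through ATF4, fell with 10.1 ± 1.65 CPM in H-TBA and 17.1 ± 2.11 CPM in L-TBA, a log2 fold change of -0.77 ± 0.15 (adjusted p = 0.00342). Cebpg, whose product pairs with ATF4, fell by 0.36 on the log2 scale (adjusted p = 0.00844), a call lost only with library totals among the 18 alternatives (0.0994). Cebpb, another partner, did not pass, with a log2 fold change of 0.18 ± 0.19 (adjusted p = 0.523) that turned to -0.015 without H-TBA 1 and to -0.18 with the GC offset. The last calls of this list were Klhl24, higher by 0.35 (adjusted p = 0.0363), and Sqstm1, the autophagy receptor p62, lower with a log2 fold change of -0.31 (adjusted p = 0.0392). Klhl24 was lost without H-TBA 2, H-TBA 4, L-TBA 1 or L-TBA 2 (adjusted p 0.0651 to 0.134), and Sqstm1 without any 1 library except H-TBA 1 (0.0679 to 0.157 without H-TBA 2, H-TBA 3, H-TBA 4, L-TBA 1, L-TBA 2 or L-TBA 3). The replicate block ended both, the length offset that of Klhl24, and library totals and no filter that of Sqstm1, with a highest adjusted p of 0.134 for Klhl24 and 0.225 for Sqstm1. With library totals the list had 5 higher and 2 lower, beside 3117 higher and 832 lower of all 15249 tested genes.

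**Figure D3:**
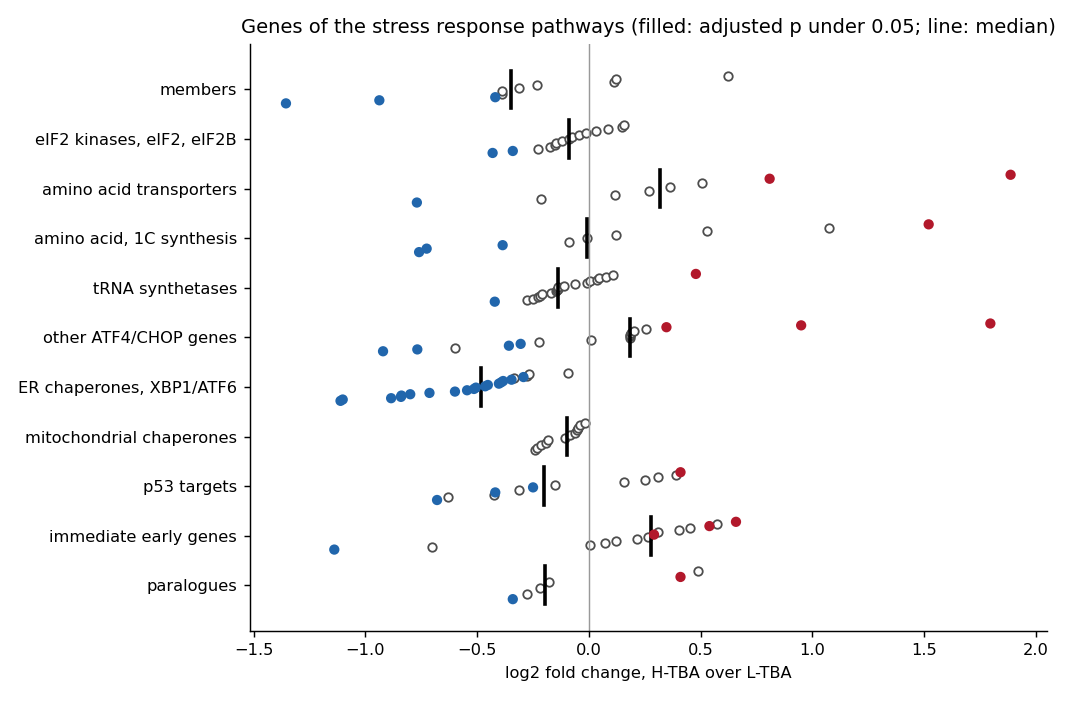
Log2 fold changes (H-TBA over L-TBA, horizontal axis) of the tested genes of each pathway list, 1 point per gene and 1 row per list, with the median of each list marked. The 22 points of the ER chaperone list all lie below 0 around a median of -0.48, while the other lists spread to both sides of 0 apart from the mitochondrial list, whose 12 points lie just below it.

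PERK sits beside 2 other sensors of unfolded protein in the endoplasmic reticulum (ER), IRE1 and ATF6. A separate list held ER chaperones, XBP1 or ATF6 targets, and the genes of the sensors IRE1 and ATF6 themselves. Of these 22 genes, 0 rose and 18 fell, that of ATF6 among them, beside 10.7% lower of all tested genes. The median log2 fold change of the 22 was -0.48. At an unadjusted p under 0.05, 0 were higher and 20 lower, and DESeq2 and limma-voom each called 0 higher and 18 lower. Over the 18 alternatives 14 to 18 were lower, with 14 for library totals, the replicate block and without L-TBA 2. With library totals and without L-TBA 2, 1 gene of the list turned above 0. The chaperone gene Hspa5 had 336, 372, 285 and 322 CPM in the H-TBA libraries and 521, 698 and 497 CPM in the L-TBA libraries, a log2 fold change of -0.80 ± 0.13 (adjusted p = 0.00186). Calr, Hyou1 and Pdia4 fell with log2 fold changes of -0.88 ± 0.11, -0.84 ± 0.11 and -0.71 ± 0.10 (adjusted p = 0.000531, 0.00044 and 0.000784). Xbp1 fell by less, with a log2 fold change of -0.29 ± 0.09 (adjusted p = 0.0422), and lost its call without H-TBA 1, H-TBA 3, H-TBA 4, L-TBA 1 or L-TBA 2 (0.057 to 0.149), and without a filter, with the replicate block and with library totals (up to 0.301). Herpud1, which ATF4 and ATF6 both raise, did not pass (log2 fold change -0.33 ± 0.19, adjusted p = 0.233), and it passed without H-TBA 1 (0.022, within a range of 0.022 to 0.471). Within L-TBA, L-TBA 2 had the highest level of Hspa5, Calr, Hyou1 and Pdia4. L-TBA 2 was also the highest of its group for 5 members (Atf5, Chac1, Sesn2, Nupr1 and Ppp1r15a) and the lowest for Gdf15.

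**Figure D4:**
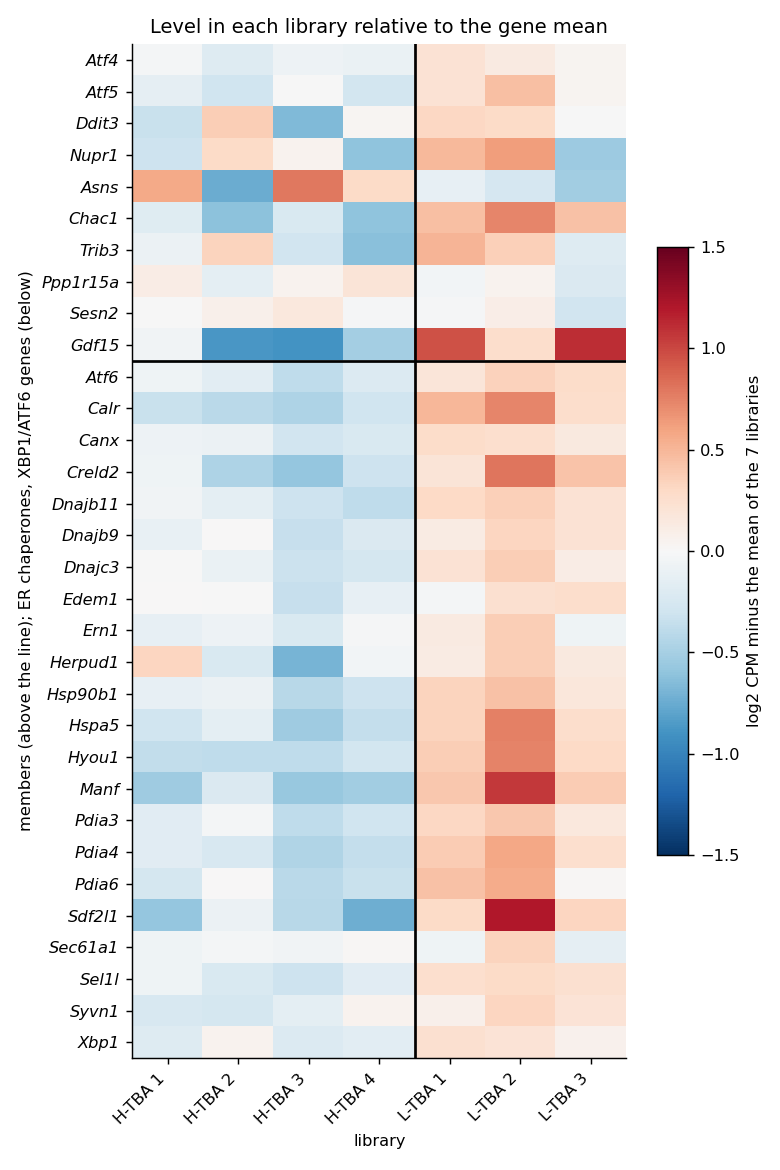
Heat map of the 10 genes (above the line) and the 22 genes of the ER chaperone list (below it) in the 4 H-TBA libraries (left) and the 3 L-TBA libraries (right), coloured by log2 CPM minus the gene's mean over the 7 libraries. Red above and blue below the mean separate the groups for 18 of the 22 lower rows and for Atf4, Atf5, Chac1 and Gdf15 among the upper rows, and Ddit3, Nupr1 and Trib3 peak in H-TBA 2 within their group.

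HRI receives the mitochondrial arm through DELE1. Of the 12 genes in the list of mitochondrial chaperones and proteases, which includes Dele1, 0 rose and 0 fell in edgeR's test, with 0 higher and 2 lower at an unadjusted p under 0.05, 0 by DESeq2 and 1 lower by limma-voom. Over all tested genes, edgeR called 13.1% higher and 10.7% lower. Dele1 stood at -0.24 ± 0.09 on the log2 scale (adjusted p = 0.0732) and Dnaja3 at -0.23 ± 0.09 (0.0864). Dnaja3 passed without H-TBA 1 (adjusted p = 0.0153) and with limma-voom (0.0316), and Dele1 with the length offset (0.0381), within ranges of 0.0153 to 0.47 and 0.0381 to 0.618. All 12 log2 fold changes were below 0, with a median of -0.10, but with library totals only 5 were.

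Gdf15, Sesn2 and Trib3 are also reached by other stress pathways, so lists for those were compared. Of 12 p53 targets, 1 rose and 3 fell, beside 13.1% higher and 10.7% lower of all tested genes. Aen and Ccng1 fell with log2 fold changes of -0.68 ± 0.12 and -0.42 ± 0.07 (adjusted p = 0.00193 and 0.0024), calls that every alternative kept, and Mdm2 with -0.25 ± 0.08 (0.0414), a call lost without any 1 library except H-TBA 1 (0.0629 to 0.124 without H-TBA 2, H-TBA 3, H-TBA 4, L-TBA 1, L-TBA 2 or L-TBA 3) and with DESeq2, no filter, the replicate block, library totals or the GC offset (up to 0.414). Cdkn1a, which encodes the cell cycle inhibitor p21, had 29.1, 23.6, 39.3 and 43.0 CPM in H-TBA and 36.5, 61.2 and 28.3 CPM in L-TBA and did not pass (adjusted p = 0.405). Without L-TBA 2 its log2 fold change turned to 0.060.

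Among 14 immediate early genes, which tissue handling and signalling raise quickly, 3 rose (Junb, Jund and Ier2) and 1 fell (Fosb). That is 21.4% higher and 7.14% lower, beside 13.1% and 10.7% of all tested genes. The 3 log2 fold changes were 0.66 ± 0.19, 0.29 ± 0.09 and 0.54 ± 0.15 (adjusted p = 0.0246, 0.0371 and 0.023), and Fosb had -1.14 ± 0.37 (0.0451). None of the 4 calls was kept under every removal of 1 library: the adjusted p was 0.0517 to 0.0582 for Junb without H-TBA 3, H-TBA 4 or L-TBA 1, and 0.0525 to 0.0849 for Ier2 without H-TBA 3, H-TBA 4, L-TBA 1 or L-TBA 2. It was 0.0671 to 0.122 for Jund without H-TBA 3, H-TBA 4, L-TBA 1, L-TBA 2 or L-TBA 3, and 0.0518 to 0.164 for Fosb without any library other than H-TBA 1. With the GC offset none of the 3 higher calls passed, and Jund turned to -0.10. Fosb was also lost with DESeq2 (0.112), library totals (0.0744), no filter (0.0627) and the replicate block (0.162), Jund with no filter (0.0529) and the block (0.174), and Junb with the robust fit (0.0571). The part of these genes in the member results was not tested.

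Of the 6 tested paralogues of the members, 1 rose and 1 fell (Ppp1r15b, above), or 16.7% each. Over all tested genes, 13.1% were called higher and 10.7% lower. Sesn1, which p53 and FOXO factors drive, rose with 19.3 ± 2.75 CPM in H-TBA and 14.5 ± 1.35 CPM in L-TBA, a log2 fold change of 0.41 ± 0.13 (adjusted p = 0.0393), although leaving out any 1 library other than H-TBA 1 ended that call (0.052 to 0.145 without H-TBA 2, H-TBA 3, H-TBA 4, L-TBA 1, L-TBA 2 or L-TBA 3), as did DESeq2, the replicate block and the length offset (0.152 at the highest). Sesn3 did not pass, with a log2 fold change of -0.22 ± 0.17 (adjusted p = 0.387). Trib1 and Trib2 stood at -0.28 ± 0.16 and 0.49 ± 0.20 (adjusted p = 0.248 and 0.108), and Trib2 passed without H-TBA 1 (log2 fold change 0.60, adjusted p = 0.036, within a range of 0.036 to 0.325). Chac2, the constitutive relative of Chac1, had 20.8, 17.0, 15.2 and 17.1 CPM in H-TBA and 18.9, 17.0 and 23.7 CPM in L-TBA, a log2 fold change of -0.18 ± 0.14 (adjusted p = 0.393). No test was made of the difference between Chac1 and Chac2.

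**Figure D5:**
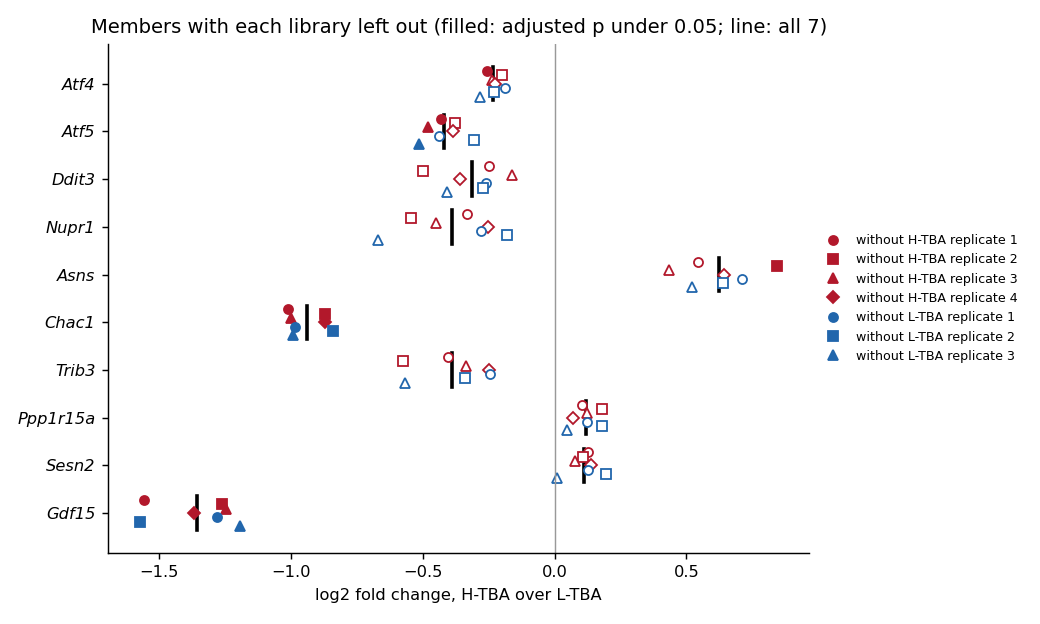
Log2 fold change (H-TBA over L-TBA, horizontal axis) of the 10 genes (rows) in the fit to all 7 libraries (black lines) and after leaving out each library in turn (red for an H-TBA library, blue for an L-TBA library, filled where the call passed). Gdf15 stays between -1.57 and -1.19 and Chac1 between -1.01 and -0.84, while Asns ranges from 0.43 to 0.85 and is highest without H-TBA 2.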

How the data were processed

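The authors deposited 1 table of raw counts per Ensembl gene, whole numbers without normalization, for 4 H-TBA and 3 L-TBA whole-liver libraries. Per the labels' protocols, Trizol was used on flash-frozen liver, and library preparation was Illumina's. The submitters' processing notes list the build mm9, DESeq2 1.18.1, TopHat2 2.0.11 and CASAVA, with no roles. How reads were counted, with which annotation and strand setting, is not given in the sources used here.

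Ensembl identifiers were matched to GENCODE symbols (32897 of 37620). Of the 23697 genes with at least 1 count, edgeR's filterByExpr (minimum count 10, minimum total 15) kept 15249. The groups were compared with edgeR 4.0.16 (R 4.3.3) and its quasi-likelihood test, after TMM scaling, in a model of group alone, and p-values were adjusted over all tested genes by Benjamini and Hochberg's method, with a threshold of 0.05. Unless another tool is named, every adjusted p is from this test. Standard errors come from the fold change and its F statistic, and 95% intervals from the t quantile with the fit's degrees of freedom. Levels are TMM-scaled CPM computed here from the deposited counts. Exon lengths and GC content come from GENCODE gene models of GRCm38 and covered 96.3% of tested genes. Promoter sequences are those of RefSeq. The common biological coefficient of variation was 0.125. Within groups, libraries differed by far more than sampling noise (smallest chi-square per degree of freedom 5.64). The fit was tested on simulated counts.

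The 10 members, the 10 pathway lists, the 7 marker lists and the rule for named genes were chosen with earlier results of these data known, so their counts are descriptions. The rule named all members and their tested paralogues, up to 3 genes per list with the smallest adjusted p, up to 2 markers per list, and 16 genes whatever their result; 5 further genes are named, after their values were seen, to complete counts of at most 5. One paralogue of Nupr1 was not analysed here. The alternatives were DESeq2 1.42.0, limma-voom (limma 3.58.1) with quality weights, DESeq2 size factors, library totals, a robust fit, no filter, a stricter filter (minimum count 30), leaving out the 20 most abundant genes, the replicate number as a block, and the removal of 1 library at a time. GC content and gene length offsets were added after the data had been seen. Figures were drawn with matplotlib 3.10.9.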

Additional observations from a re-analysis of the deposited data

Results flagged for a closer look

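In the H-TBA group, 1 library stood apart from the other 3 for 5 of the 71 named genes, none of them one of the 10 members. The gap to the nearest library, divided by the range, exceeded Dixon's 95% critical value of 0.829, which chance alone exceeds in about 1 in 20 groups. Xbp1 was at 185 CPM in H-TBA 2 and 154 to 159 CPM in the others. Hyou1 was at 61.7 CPM in H-TBA 4 and 57.1 to 57.6 CPM in the others. Dnaja3 was at 107 CPM in H-TBA 1 and 89.4 to 90.1 CPM in the others. Jund was at 181 CPM in H-TBA 2 and 211 to 217 CPM in the others. Clec4f was at 16.8 CPM in H-TBA 3 and 28.2 to 28.7 CPM in the others. The 3 L-TBA libraries were not checked in this way.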

How the results depend on the processing

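Over the 18 alternatives, Gdf15 and Chac1 kept their calls in all, and the split of 7 member fold changes below 0 and 3 above held in all but the GC offset (8 and 2). Members higher in H-TBA stayed at 0 except without H-TBA replicate 2 (1 member, Asns), so leaving out 1 library gave 0 to 1. Members lower in H-TBA numbered 2 to 4 over the alternatives and 2 to 4 on leaving out 1 library. With library totals the median over all tested genes moved to 0.16, which sets the frame for every fold change under that scaling: 3117 genes were then higher and 832 lower, beside 2003 higher and 1635 lower with TMM. Without L-TBA replicate 1, 1035 genes were lower. Among the members and the other named genes, the log2 fold changes that turned were Sesn2 with the GC offset (-0.041), Eif2ak1 and Eif2ak3 with library totals (0.063 and 0.013), Cebpb without H-TBA replicate 1 (-0.015, within -0.015 to 0.34 on leaving out 1 library) and with the GC offset (-0.18), Cdkn1a without L-TBA replicate 2 (0.060, within -0.53 to 0.060), Jund with the GC offset (-0.10) and Ms4a1 without L-TBA replicate 3 (0.13, within -2.56 to 0.13). None of these was a call apart from Jund, and the cause was not tested. Of 45 named calls, 26 were kept without any 1 library and 19 were lost without at least 1. With the replicate number as a block, 1166 genes were higher and 754 lower, and 29 of the 45 named calls were kept, with 16 lost, Atf5 among them. Same-numbered libraries did not deviate together (r = -0.10, -0.06 and -0.06 for numbers 1 to 3), so the numbers are not taken as pairs, and H-TBA 4 has no L-TBA partner. With the stricter motif TGATGCAA, 2 members held a match in place of 3. Every library held fewer than 100 counts of Chac1 and of Asns.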
